A study of Mus musculus with 6 samples.

Results

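This account follows 9 imprinted genes linked to growth and quiescence (H19, Meg3, Rian, Dlk1, Peg3, Plagl1, Ndn, Grb10 and Mest) in fibro-adipogenic progenitors (FAPs), the Pdgfra-positive mesenchymal progenitor cells that lie between the fibres of skeletal muscle. They were taken from the deposited table by symbol, and each had a single row among its 54100 genes. FAPs were sorted from the plantaris, a calf muscle, of C57BL/6 mice after sham treatment (3 libraries) or overload (3 libraries), at 1000 cells per tube. All 6 libraries came from the same strain, cell gate and muscle. The sources used here do not give the age of the mice, the way the load was applied, its duration or whether the libraries of a group came from separate mice. P-values therefore measure only how these libraries scatter, and part of that scatter may be technical.

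An imprinted gene is transcribed mainly from the copy inherited from one parent. The silent copy is set by DNA methylation laid down in the egg or sperm at a nearby control region, so that imprinted genes tend to lie in clusters that share such a region. Many of the genes expressed from the paternal copy favour growth and many of those expressed from the maternal copy restrain it, and several are high in fetal tissues and in adult stem and progenitor cells that rest outside the cell cycle. The counts used here do not separate the parental copies, so the values below are totals over both, and imprinting itself was not measured.

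Sham libraries held 500402 to 754456 counts and overloaded ones 850857 to 1124210, and libraries of the same group differed by more than sampling noise (chi-square 4.17 to 7.97 per degree of freedom). Levels are given as CPM, counts scaled to a total of 1e+06 with edgeR's TMM factors (trimmed mean of M-values), and a gene was called changed at an adjusted p under 0.05 in the quasi-likelihood test of edgeR with Benjamini-Hochberg adjustment over 7207 tested genes. All 12 FAP markers were detected in the libraries, with summed levels of 58549 to 76007 CPM under sham and 72973 to 85201 CPM under overload. Col3a1 alone went from 16961 ± 2169 to 42939 ± 4139 CPM (SD, n = 3 each), more than any other marker in the overloaded sum. Of these markers 6 were called lower and 2 higher. That was 66.7% of the 12 tested, against 29.3% of all tested genes (14.3% lower and 15% higher). Dcn, Pi16, Dpp4 and Clec3b had log2 fold changes of -1.31, -1.67, -2.12 and -2.34, and the collagen genes Col1a1 and Col3a1 of 1.42 and 1.34. Of the muscle stem cell and myoblast markers, Myod1 and Mymx had no count in any library, and Pax7 had 6 counts, all in overloaded library 2. Vcam1 and Itga7 of the same list had 102 and 52 counts over the sham libraries and 304 and 31 over the overloaded ones.

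Among the 9 genes, 4 fell in FAPs of overloaded muscle and none rose. The genes that fell were Meg3, Rian and Dlk1, which lie together on chromosome 12, and Peg3 on chromosome 7, with losses between 1.92-fold and 2.86-fold in mean CPM. The calls of Meg3, Rian and Dlk1, but not that of Peg3, were lost when the share of background reads was added to the fit (values below). Plagl1 and Grb10 were 1.48-fold and 1.46-fold lower on average without passing the threshold, and Ndn and H19 showed smaller differences of opposite sign. Mest had too few counts to be tested. The 4 called genes were 50% of the 8 tested, whereas 29.3% of all tested genes were called in either direction and 14.3% were called lower. The median log2 fold change of the 8 tested genes was -0.75, against -0.02 over all tested genes. In 5 of the 8 tested genes every overloaded library was below every sham library, a pattern found in 20.3% of all tested genes. The 9 genes and the lists below were chosen with earlier results of these data known. Their shares beside those of all tested genes are therefore descriptions and not tests. In sorted pools such as these, fewer cells that express a gene and less RNA per cell cannot be told apart.

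**Figure D1:**
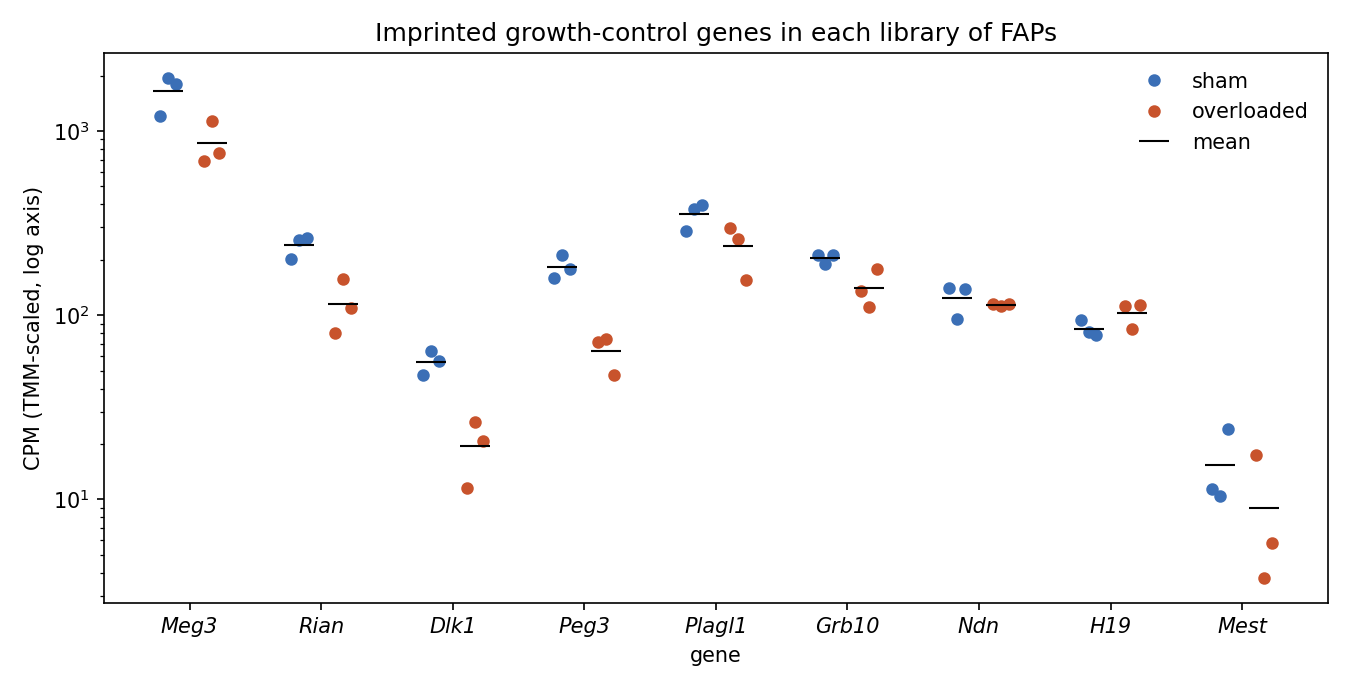
Level of each of the 9 imprinted genes (x axis) in each library, in TMM-scaled CPM on a log axis. Points are the 3 sham (blue) and 3 overloaded (orange) libraries and black bars are group means; for Meg3, Rian, Dlk1, Peg3 and Grb10 all overloaded points lie below all sham points.

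Meg3, Rian and Dlk1 belong to the imprinted domain that runs from Dlk1 to Dio3. Meg3 (GRCm38 chr12:109541001-109571726, plus strand) is a long noncoding RNA transcribed from the maternal copy. Rian (chr12:109603940-109661716, plus strand) is a noncoding RNA downstream of Meg3 that is expressed from the same copy and hosts small nucleolar RNAs and microRNAs. Dlk1 (chr12:109452823-109463336, plus strand) is expressed from the paternal copy and encodes a transmembrane protein with EGF-like repeats, also known as preadipocyte factor 1, that restrains adipocyte differentiation.

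The sequences upstream of Meg3 and Dlk1 are shown because these neighbours fell together although they are known to be transcribed from different parental copies. Promoter sequences were found in RefSeq (GRCm38.p6) for 8 of the 9 genes, and the 200 bases before the annotated start are printed. Capitals mark TGACGTCA, the full cAMP response element, a palindrome that reads the same on both strands. This motif was chosen after the letters had been read, and a match is a description of sequence, not evidence of binding. The Meg3 stretch is chr12:109540796-109540995 and the Dlk1 stretch chr12:109452623-109452822, both on the plus strand.
Meg3: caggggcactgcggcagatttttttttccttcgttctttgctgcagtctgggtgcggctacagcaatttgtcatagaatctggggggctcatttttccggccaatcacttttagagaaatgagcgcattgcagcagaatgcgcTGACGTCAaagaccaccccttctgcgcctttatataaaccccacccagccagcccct
Dlk1: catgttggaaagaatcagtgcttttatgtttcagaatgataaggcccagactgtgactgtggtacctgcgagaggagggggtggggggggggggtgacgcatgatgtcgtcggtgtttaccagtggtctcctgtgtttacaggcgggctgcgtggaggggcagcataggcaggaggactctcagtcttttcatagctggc
The Meg3 match begins 57 bases before the start, and the Dlk1 stretch holds no match. Of 32851 RefSeq promoters, 1.55% hold this motif in the 250 bases before the start.

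Meg3 was measured at 1213, 1941 and 1794 CPM in sham libraries 1 to 3 and at 692, 1129 and 758 CPM in overloaded libraries 1 to 3. The highest overloaded library remained below the lowest sham library. Mean levels were 1649 ± 385 CPM (sham) and 859 ± 236 CPM (overloaded) (SD, n = 3 each), a log2 fold change of -0.94 (SE 0.22; adjusted p = 0.00146, edgeR).

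Rian was at 202, 255 and 262 CPM in sham and at 79.8, 157 and 110 CPM in overloaded libraries. As for Meg3, overloaded library 2 was the highest of its group and sham library 1 the lowest of its group, and the groups did not overlap. The mean fell from 240 ± 33.0 to 115 ± 38.8 CPM (SD, n = 3 each), with a log2 fold change of -1.06 (SE 0.24; adjusted p = 0.00107, edgeR).

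Dlk1 was at 47.3, 64.3 and 56.5 CPM in sham and at 11.5, 26.3 and 20.8 CPM in overloaded libraries, from 31 to 42 counts per sham library and 12 to 21 per overloaded library. The groups were separated by a gap wider than the range within either group. Its mean fell from 56.0 ± 8.53 to 19.6 ± 7.48 CPM (SD, n = 3 each), a log2 fold change of -1.53 (SE 0.35; adjusted p = 0.00118, edgeR).

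The ratio of counts within a library shows how far these neighbours moved together. Rian gave 14.8 ± 1.76 counts per 100 Meg3 counts in sham and 13.3 ± 1.56 in overloaded libraries (SD, n = 3 each, exact permutation p = 0.4, two-sided), with overlapping groups. Dlk1 gave 3.45 ± 0.39 and 2.25 ± 0.54 counts per 100 Meg3 counts, with no overlap between groups (SD, n = 3 each, exact permutation p = 0.1, the smallest that 3 against 3 libraries can give). The Benjamini-Hochberg adjusted values over the 6 ratios computed were 0.4 for Rian and 0.2 for Dlk1.

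The domain from Dlk1 to Dio3 spans 828 kb and holds 116 rows of the table, of which 17 had any count and 7 were tested. Of its 7095 counts, 76.0% lay in Meg3. Besides the 3 genes above, the predicted transcript Gm37899, which starts 128 kb downstream of the Meg3 start and was singled out after its values were seen, fell from 151 ± 33.4 to 63.2 ± 17.0 CPM (log2 fold change -1.26, SE 0.26; adjusted p = 0.000336, edgeR). B830012L14Rik, also singled out afterwards, had a log2 fold change of -1.39 (SE 0.56) and did not pass the threshold (edgeR adjusted p = 0.0606). Mirg, a maternally expressed host of many microRNAs, had 11 to 20 counts per sham library and 12 to 21 per overloaded library, with a log2 fold change of -0.48 (SE 0.39; adjusted p = 0.385, edgeR). Rtl1, a paternally expressed gene derived from a retrotransposon, was below the filter with counts of 4, 1 and 9 under sham and of 3, 2 and 1 under overload.

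Dio3, at the far end of the domain, encodes the deiodinase that inactivates thyroid hormone. It had 2, 4 and 5 counts in sham libraries and 44, 29 and 45 counts in overloaded libraries, and every overloaded library was far above every sham library. The mean rose from 5.96 ± 2.80 to 43.6 ± 7.92 CPM (SD, n = 3 each), a log2 fold change of 2.89 (SE 0.45; adjusted p = 1.29e-05, edgeR). Dio3 was thus the only tested row of the domain with a positive log2 fold change. It passed the filter only through its overloaded libraries, however, so a positive value was favoured once it was tested.

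**Figure D2:**
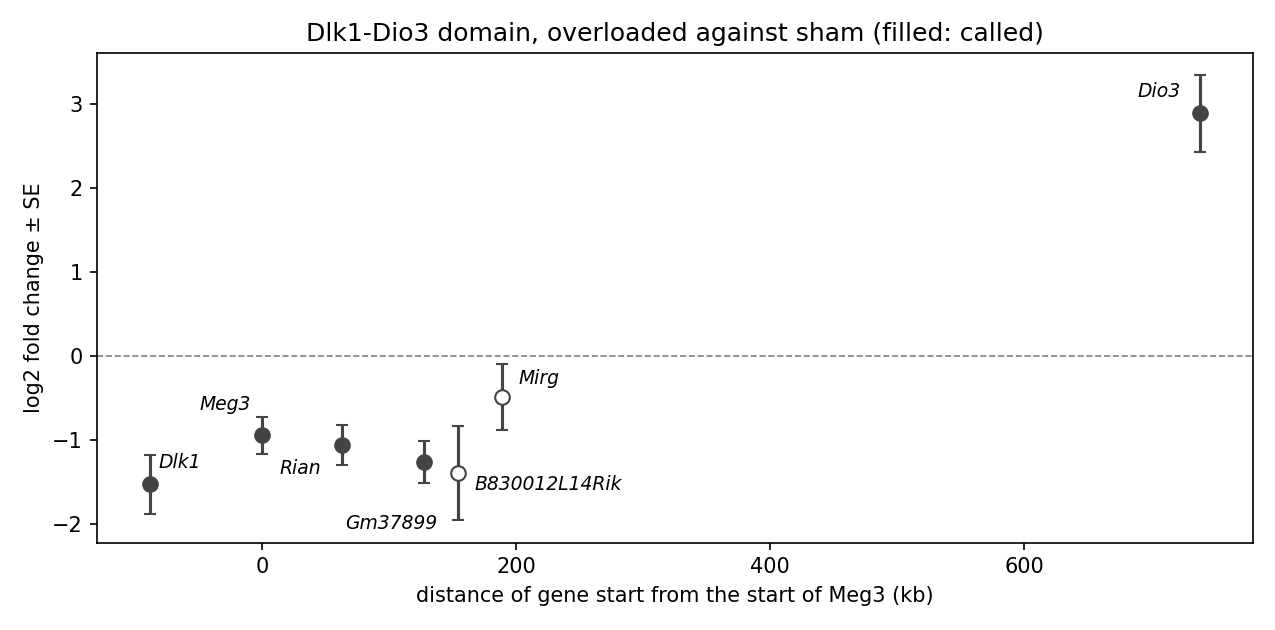
Log2 fold change of overloaded against sham libraries, with its standard error as bars, for the 7 tested rows of the Dlk1-Dio3 domain, placed by the distance of the gene start from the Meg3 start in kb. Filled points passed an adjusted p of 0.05; Dlk1, Meg3, Rian and Gm37899 lie below 0 and Dio3 lies at 2.89.

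H19, Meg3, Rian and Mest are also hosts of microRNAs, whose seeds (bases 2 to 8, in capitals) decide most of their target pairing. One or more mature sequences per host from RefSeq (GRCm38.p6) are printed to show which small RNAs the host transcripts carry.
mmu-miR-675-5p (H19): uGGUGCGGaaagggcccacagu
mmu-miR-675-3p (H19): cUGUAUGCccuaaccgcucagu
mmu-miR-770-5p (Meg3): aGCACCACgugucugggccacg
mmu-miR-370-3p (Rian): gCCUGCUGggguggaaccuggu
mmu-miR-335-5p (Mest): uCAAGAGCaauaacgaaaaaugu
No seed was shared among these 5. The microRNA rows of the table that lie within the gene spans on the same strand (1 in H19, 2 in Meg3, 4 in Rian and 1 in Mest) held 0 counts in every library, and all 67 microRNA rows of the Dlk1-Dio3 domain held 3 counts together. Libraries primed on poly(A) tails do not capture mature microRNAs, so the values of Meg3 and Rian describe the host transcripts, and the microRNAs were not measured.

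Peg3 (chr7:6703892-6730431, minus strand) is expressed from the paternal copy and encodes a zinc finger protein that is found in several kinds of adult stem and progenitor cells. Its RefSeq promoter stretch (chr7:6730420-6730619, minus strand, 200 bases) is shown for comparison with those of Meg3 and Dlk1, with the same motif in capitals.
Peg3: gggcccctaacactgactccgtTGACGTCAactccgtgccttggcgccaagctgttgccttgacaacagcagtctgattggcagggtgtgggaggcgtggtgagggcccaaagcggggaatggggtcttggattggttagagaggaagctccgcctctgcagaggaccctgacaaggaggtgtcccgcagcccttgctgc
The match begins 178 bases before the start. In the 250 bases before the start, Meg3 (at the first of its 2 listed starts) and Peg3 were the only ones of the 8 genes with a match.

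Peg3 was at 159, 214 and 179 CPM in sham and at 71.2, 74.0 and 47.4 CPM in overloaded libraries. The groups were widely separated, with the highest overloaded library far below the lowest sham library. The mean fell from 184 ± 27.7 to 64.2 ± 14.6 CPM (SD, n = 3 each), a log2 fold change of -1.51 (SE 0.25; adjusted p = 2.12e-05, edgeR). Of its neighbours within 500 kb only Zfp954 was tested, and it did not pass the threshold (edgeR adjusted p = 0.128).

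Ndn (chr7:62346569-62350262, plus strand) is a paternally expressed gene of the region that corresponds to the human Prader-Willi locus, and its product necdin restrains proliferation. It was at 140, 95.4 and 139 CPM in sham and at 114, 112 and 115 CPM in overloaded libraries. Overloaded libraries lay within the range of the sham libraries. The log2 fold change was -0.15 (SE 0.23, 95% interval -0.62 to 0.33, edgeR adjusted p = 0.687), so a loss of the size seen for Peg3 lies outside the interval. Per 100 Peg3 counts, Ndn gave 70.1 ± 22.7 counts in sham and 184 ± 49.7 in overloaded libraries, with no overlap (SD, n = 3 each, exact permutation p = 0.1, Benjamini-Hochberg adjusted 0.2).

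H19 (chr7:142575529-142578143, minus strand) is a maternally expressed long noncoding RNA next to Igf2. It was at 94.5, 80.9 and 78.0 CPM in sham and at 113, 84.0 and 113 CPM in overloaded libraries. The groups overlapped, since overloaded library 2 was below sham library 1. The log2 fold change was 0.29 (SE 0.24, 95% interval -0.20 to 0.78, edgeR adjusted p = 0.395). Igf2, the growth factor gene that shares the control region of H19, had 2 counts in sham library 1, 1 count in overloaded library 1 and none in the other 4 libraries.

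Plagl1 (chr10:13060504-13131694, plus strand) encodes a zinc finger transcription factor, expressed from the paternal copy, that can arrest the cell cycle and acts on other imprinted genes. It was at 286, 377 and 394 CPM in sham and at 299, 261 and 155 CPM in overloaded libraries, and the groups overlapped. The log2 fold change of -0.56 (SE 0.23; adjusted p = 0.0637, edgeR) did not pass the threshold. It passed without overloaded library 1, the highest of its group (log2 fold change -0.73, edgeR adjusted p = 0.0337), and with library totals in place of TMM or a minimum count of 30. All 5 tested neighbours of Plagl1 within 500 kb were called: Ltv1, Stx11 and Sf3b5 had log2 fold changes of 1.68, 1.39 and 1.72, and Phactr2 and Utrn of -1.59 and -0.64. Within the same distance, 1 of 6 tested neighbours of H19, 0 of 6 of Mest and 3 of 5 of Meg3 were called. Those of Meg3 were Dlk1 and Rian, themselves among the 9 genes, and Gm37899, so they repeat the results above. Of all tested genes 29.3% were called.

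Grb10 (chr11:11930508-12038683, minus strand) encodes an adaptor that binds the insulin and IGF1 receptors and dampens their signal. In mouse it is expressed from the maternal copy in most tissues. It was at 213, 191 and 213 CPM in sham and at 135, 110 and 178 CPM in overloaded libraries, with no overlap between the groups. The log2 fold change of -0.54 (SE 0.22; adjusted p = 0.0662, edgeR) did not pass the threshold. It passed without overloaded library 3, the highest of its group (log2 fold change -0.72, edgeR adjusted p = 0.0361), and under the same changes of scaling and filter as Plagl1.

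Mest (chr6:30723547-30748465, plus strand), a paternally expressed gene for a protein of the hydrolase family, was below the filter. It had 8, 5 and 18 counts in sham and 18, 3 and 5 counts in overloaded libraries, or 15.3 ± 7.70 and 8.95 ± 7.31 CPM (SD, n = 3 each). The groups overlapped widely, and a difference in Mest was not detectable at this depth. Exons of H19, Meg3, Plagl1 and Mest overlap those of genes on the opposite strand, among them Gm26906 for Meg3 and Copg2 for Mest, and without a stated strand setting their reads cannot be told apart. Dlk1, Peg3, Ndn and Grb10 have no such neighbour, and for Rian the overlap is with small RNAs on its own strand.

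Background reads were lower on average in overloaded libraries. FAPs are not known to express receptors for odours or pheromones, yet reads of those genes (olfactory and vomeronasal receptors) made up 1344, 1671 and 722 CPM of the library total in sham libraries and 284, 1034 and 219 in overloaded libraries (1246 ± 482 and 512 ± 453, SD, n = 3 each, exact permutation p = 0.2). With this share as a covariate in edgeR, Peg3 remained called (log2 fold change -1.30, adjusted p = 0.00959). Meg3, Rian and Dlk1 did not, at log2 fold changes of -0.70, -0.85 and -1.25 (edgeR adjusted p = 0.0913, 0.0686 and 0.0712), and the number of all genes called went from 2111 to 978. The groups overlapped in the share of such reads, since sham library 3 was below overloaded library 2. Whether these reads had a part in the values of the imprinted genes was not tested.

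Of 8 marker lists for cells other than FAPs, 6 were apart in that the summed levels of sham and overloaded libraries did not overlap. Of all tested genes, taken singly, 41.5% were apart in this way. Summed levels in sham and overloaded libraries were 122 to 231 and 33.5 to 92.8 CPM for endothelial cells (10 of 10 markers detected, with Tek holding most of the sham sum), 606 to 888 and 304 to 472 CPM for Schwann cells (5 of 7 detected, with Sox10 at 0), and 47.3 to 72.6 and 25.0 to 30.1 CPM for muscle fibres (10 of 11 detected, Tnnc2 at 0). Those for pericytes and smooth muscle were 245 to 285 and 448 to 641 CPM (10 of 10 detected, with Acta2 called higher), those for tenocytes 125 to 162 and 3375 to 4346 CPM (6 of 6 detected, mostly Thbs4), and those for muscle stem cells and myoblasts 87.1 to 90.1 and 104 to 155 CPM (8 of 10 detected, Myod1 and Mymx at 0, Vcam1 called higher and Itga7 lower). Each of these 6 gave an exact permutation p of 0.1 (Benjamini-Hochberg adjusted 0.15 over 9 lists). Single genes carried some of these sums. Acta2 alone went from 15.1 ± 6.83 to 321 ± 101 CPM, while 3 of the 5 tested pericyte and smooth muscle markers had log2 fold changes below 0. Vcam1 alone went from 51.8 ± 9.49 to 114 ± 18.9 CPM, and Pmp22 of the Schwann cell list from 705 ± 155 to 393 ± 82.1 CPM (SD, n = 3 each). Leukocytes had 16.1 to 27.0 and 1.92 to 21.3 CPM (8 of 13 detected; Adgre1, C1qa, C1qb, Lyz2 and S100a9 at 0), and adipocytes 0 to 47.3 and 1.16 to 19.2 CPM (5 of 6 detected, Cfd at 0). The part of these cells in the values of the imprinted genes was not tested.

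Of 47 other imprinted genes on a fixed list, 46 were in the table and 17 were tested, of which 5 fell and 3 rose, 47.1% against 29.3% of all tested genes. Their median log2 fold change was -0.49. By the parental copy from which they are known to be expressed, the paternal list had 9 tested genes with 3 lower and 1 higher, and the maternal list had 5 tested genes with 2 lower and 1 higher. Both directions thus occurred in both lists, as they did within the Dlk1-Dio3 domain.

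Cdkn1c, a maternally expressed inhibitor of cyclin-dependent kinases (p57), had 200, 115 and 182 counts in sham and 42, 40 and 15 counts in overloaded libraries. Every overloaded library was below every sham library by a wide margin. Its mean fell from 257 ± 26.0 to 36.0 ± 16.8 CPM (SD, n = 3 each), a log2 fold change of -2.83 (SE 0.28; adjusted p = 6.72e-09, edgeR). Kcnq1ot1, the paternally expressed noncoding RNA of the same domain, had a log2 fold change of -0.58 (SE 0.21; adjusted p = 0.0321, edgeR). That call was lost in turn without sham library 2, sham library 3, overloaded library 2 or overloaded library 3, at log2 fold changes of -0.40, -0.61, -0.47 and -0.54, and also with no filter (-0.49) and with the receptor-read covariate described above (-0.56).

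Asb4, a maternally expressed gene of the ankyrin repeat and SOCS box family, fell by 3.03 on the log2 scale (SE 0.53; adjusted p = 7.73e-05, edgeR). Zrsr1, a paternally expressed retrogene related to a splicing factor, fell by 1.86 (SE 0.38; adjusted p = 0.000338, edgeR). It lies inside Commd1, so that reads of these genes may not be told apart. Commd1 had a log2 fold change of 1.07 (SE 0.40; adjusted p = 0.0431, edgeR) and lost its call in 9 of 13 alternatives, among them without sham library 2 or 3 and without overloaded library 2 or 3 (log2 fold changes of 1.11, 0.86, 0.86 and 1.09). H13, a peptidase that cuts signal peptides, rose by 0.99 on the log2 scale (SE 0.25; adjusted p = 0.00256, edgeR).

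Airn, the noncoding RNA that crosses Igf2r from the opposite strand, fell by 1.27 on the log2 scale (SE 0.35; adjusted p = 0.00639, edgeR), a call lost without sham library 3 (log2 fold change -1.08, adjusted p = 0.0564). Igf2r itself, the receptor that clears IGF2 and is expressed from the maternal copy, was at 288, 243 and 357 CPM in sham and 229, 232 and 234 CPM in overloaded libraries and did not pass the threshold (log2 fold change -0.36, SE 0.21; adjusted p = 0.208, edgeR). Reads of Airn and Igf2r cannot be told apart where they overlap, since the strand setting is not stated. Gnas was below the filter, with 4 to 7 counts per sham and 3 to 8 counts per overloaded library.

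**Figure D3:**
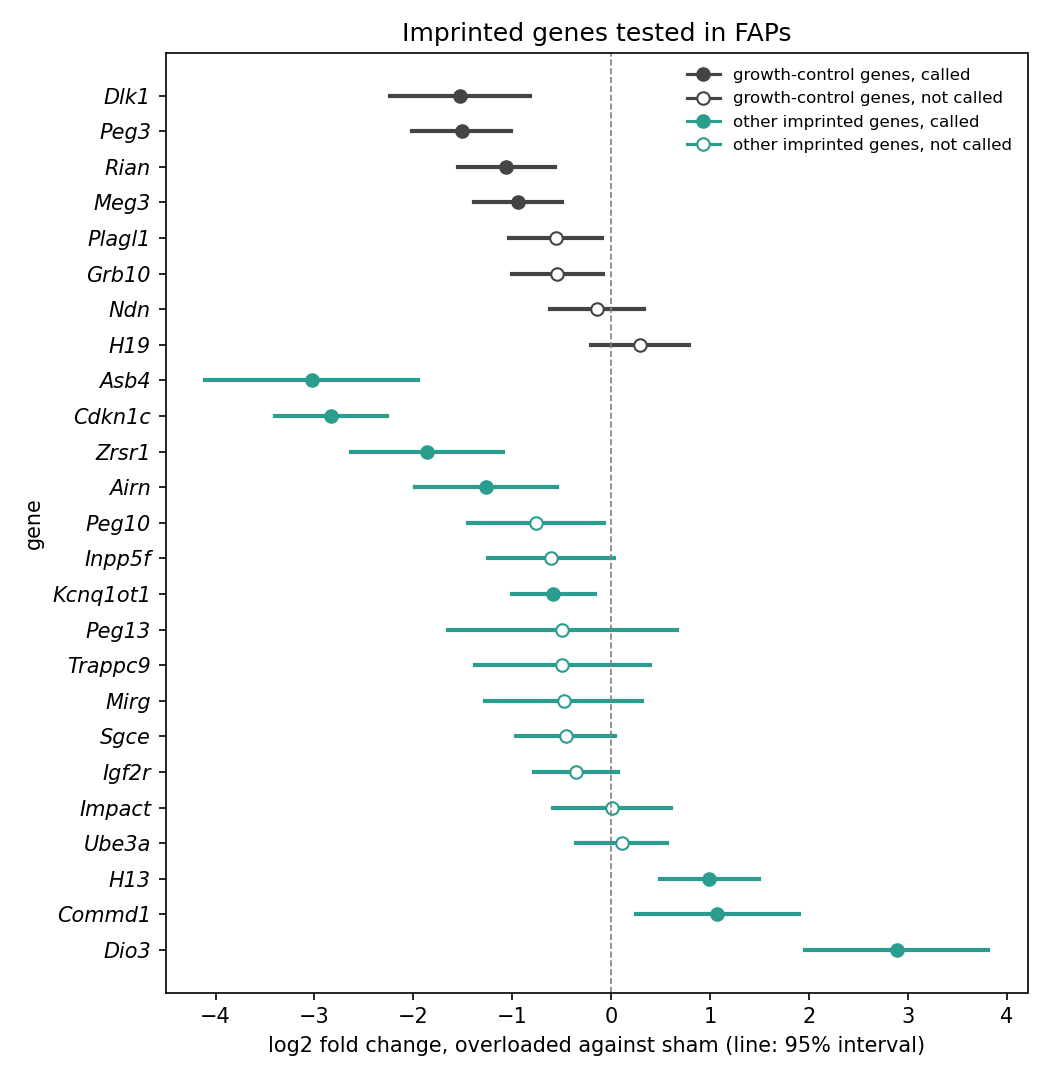
Log2 fold change of overloaded against sham libraries (x axis) with its 95% interval for the 8 tested growth-control genes (dark) and 17 other tested imprinted genes (green), listed on the y axis. Filled points passed an adjusted p of 0.05; the dark points run from -1.53 for Dlk1 to 0.29 for H19, and the green ones from -3.03 for Asb4 to 2.89 for Dio3.

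Of 14 factors that set or keep imprints, 10 were tested, 2 rose and 1 fell (30% called, against 29.3% of all tested genes). Uhrf1, which brings the maintenance methyltransferase to newly copied DNA, had 3 counts in all sham and 66 in all overloaded libraries, a depth-scaled ratio of 15.7 (exact 95% interval for counting error 5.13 to 77.9). Dnmt1, that methyltransferase, had a log2 fold change of 0.90 (SE 0.34; adjusted p = 0.0441, edgeR). Dnmt3a, which sets new methylation, had a log2 fold change of -0.79 (SE 0.29; adjusted p = 0.0409, edgeR). The calls of Dnmt1 and Dnmt3a were kept in 3 of 14 and 6 of 15 alternatives. Dnmt1 lost its call without overloaded library 3 or any 1 sham library (log2 fold changes of 0.65 to 1.01), and Dnmt3a without sham library 1 or 3 or any 1 overloaded library (-0.90 to -0.65).

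Of 18 genes of insulin and IGF receptor signalling, the pathway that Grb10 dampens, 13 were tested, 3 fell and none rose. These calls were 23.1% of those tested, against 29.3% of all tested genes in either direction and 14.3% lower. Insr, the insulin receptor, and Pik3r1, the regulatory subunit of the kinase PI3K, fell by 2.28 (SE 0.48) and 1.81 (SE 0.27) on the log2 scale (edgeR adjusted p = 0.000548 and 6.08e-06). Irs1, an adaptor of both receptors, had a log2 fold change of -1.30 (SE 0.48; adjusted p = 0.0455, edgeR) with overlapping groups. Its call was lost without sham library 1, sham library 2, overloaded library 1 or overloaded library 3 (-1.22 to -0.86), and with the receptor-read covariate its log2 fold change was -0.03.

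Of 11 further cell cycle inhibitors, 8 were tested, 2 fell and 1 rose (37.5% called, against 29.3% of all tested genes). Cdkn1a (p21) fell by 1.16 on the log2 scale (SE 0.19; adjusted p = 2.66e-05, edgeR). Cdkn1b (p27) had a log2 fold change of -0.89 (SE 0.27; adjusted p = 0.015, edgeR) with overlapping groups and lost its call without sham library 1, overloaded library 1 or overloaded library 3 (-0.62, -0.63 and -0.75), and with the receptor-read covariate (-0.52). Rbl1, a relative of the retinoblastoma protein, rose from 4.14 ± 3.65 to 23.2 ± 3.97 CPM (SD, n = 3 each).

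Of 20 proliferation markers 12 were tested, and 9 rose and none fell (75% called higher, against 15% of all tested genes). The 9 called markers averaged 0.477 to 9.51 CPM in sham libraries and passed the filter through their overloaded libraries. The filter thus favoured rises, and the 75% is no measure of the list's direction. Uhrf1 and Rbl1 above passed it in the same way. The 3 tested markers that were not called, Ccnd1, Ccnd2 and Pcna, averaged 20.5, 407 and 43.6 CPM in sham libraries. Mki67 rose from 7.09 ± 3.32 to 36.2 ± 12.6 CPM, Rrm2, a subunit of ribonucleotide reductase, from 3.89 ± 2.49 to 83.7 ± 40.8 CPM, and Birc5 (survivin) from 4.96 ± 5.64 to 41.8 ± 18.0 CPM (SD, n = 3 each). With the receptor-read covariate Mki67 was no longer called (log2 fold change 1.50, edgeR adjusted p = 0.0962). Cdk1, the kinase of mitotic entry, had 1 count in all sham and 200 in all overloaded libraries, a depth-scaled ratio of 142 (exact 95% interval for counting error 25.3 to 5653). The fall of Meg3, Rian, Dlk1 and Peg3 and the rise of these markers were measured in the same 6 libraries, and whether they occurred in the same cells was not tested.

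Several tested genes followed the imprinted genes closely across the 6 libraries, as measured by Pearson's r of log2(CPM + 1) over the 6960 genes averaging 10 CPM or more. For Peg3 these were Stmn4, Itga11 and Agtrap (0.997 to 0.998), and for Meg3 Tsc22d1 and Rev1 (0.995 and 0.988). Dlk1 was followed by Uty, Enpp5 and Foxo3 (0.988 to 0.997), Rian by Lpcat1, Npr2 and Ankle2 (0.989 to 0.993), and Plagl1 by Rbbp6, Ly6c1 and Senp7 (0.978 to 0.996). For Grb10 the genes were Arhgap32, Zup1 and Zhx1 (0.978 to 0.986), for Ndn Slc25a17, Edem3 and Dnajc30 (0.984 to 0.987), and for H19 Rps13-ps1, Utp3 and Taf1d (0.974 to 0.990). With 6 libraries and 6960 genes, values this high describe likeness only, and the libraries share the difference between the groups. For none of the 8 genes did another of the 9 rank among the closest 3.

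The plot of log2 fold changes under each processing choice sets the 8 tested genes side by side, and none of them changed sign in any of the alternatives run. Peg3 was called in all 15 alternatives, between -1.60 and -1.30. Meg3, Rian and Dlk1 were each called in 14, the exception being the receptor-read covariate, with ranges of -1.17 to -0.70, -1.33 to -0.82 and -1.77 to -1.21. Plagl1 and Grb10 were called in 3 of 15 each, and Ndn and H19 in none, with adjusted p between 0.448 and 0.964 for Ndn and between 0.238 and 0.858 for H19.

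**Figure D4:**
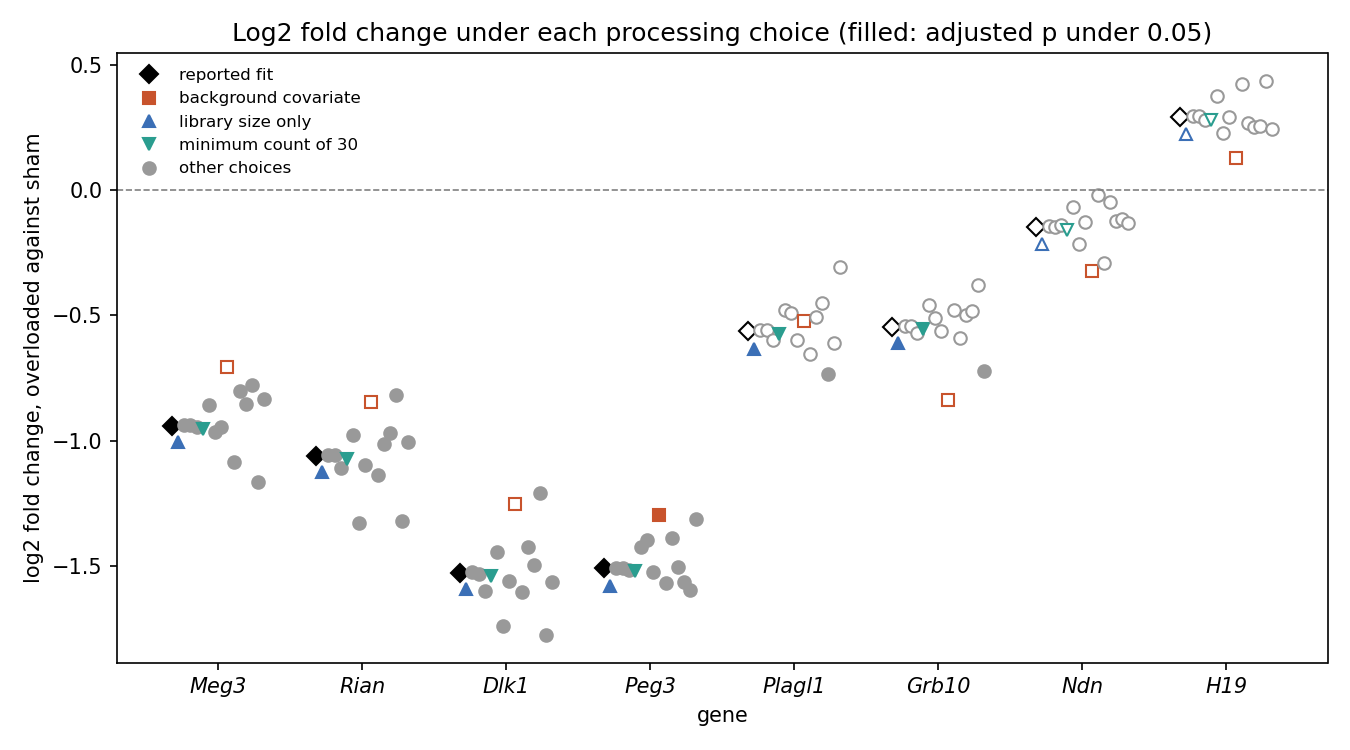
Log2 fold change of overloaded against sham libraries (y axis) for each of the 8 tested imprinted genes (x axis) in the reported edgeR fit (diamond) and under 15 other processing choices, filled where the adjusted p was under 0.05. Peg3 points lie between -1.60 and -1.30 and are all filled, and H19 points lie between 0.13 and 0.44 and are all open.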

How the data were processed

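RNA of sorted Pdgfra-positive FAPs was measured in 3 sham and 3 overloaded plantaris libraries built after a published CEL-Seq2 type of protocol, per the labels. The values are read counts per gene that the authors deposited as whole numbers in a single table, without normalization. The submitters' processing notes name GRCm38, featureCounts 2.0.1, HISAT2 2.2.1, Trim Galore 0.6.6 and DESeq2 1.28.1. The sources used here give no strand setting, annotation release or use of molecular identifiers, so reads may not be independent molecules, and exact 95% intervals on counts cover counting error only.

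The members and gene lists were chosen with earlier results of these data known. All 6 libraries were fitted with edgeR 4.0.16 in R 4.3.3 (filterByExpr with a minimum count of 10 and a total of 15, TMM, robust quasi-likelihood F test), with Benjamini-Hochberg adjustment over 7207 of 54100 genes. Log2 fold changes had a median standard error of 0.33, at a common biological coefficient of variation of 21.2%. CPM were scaled to 1e+06 effective counts, at which 1 count was worth 0.962 to 2.07 CPM. Marker sums and count ratios were compared by exact two-sided permutation, which cannot give a p under 0.1. Positions came from GENCODE M21 and sequences from RefSeq tables of GRCm38.p6.

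Named were all 9 imprinted genes, up to 6 called genes per list by adjusted p, Igf2, Igf2r, Cdkn1c, Mirg, Rtl1 and Gnas, and the 3 genes closest to each tested one, except where a gene is not reported here. Alternatives were other scalings (library size, RLE), DESeq2 1.42.0, limma-voom (limma 3.58.1), other filters, thinning to 500402 counts, a replicate block, the share of reads in 1465 olfactory and vomeronasal receptor genes as a covariate, and leaving out each library.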

Additional observations from a re-analysis of the deposited data

How the results depend on the processing

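The scaling, test and filter alternatives changed no direction among the 8 tested imprinted genes. With the receptor-read covariate 978 genes were called (510 higher, 468 lower) in place of 2111, and of the 9 imprinted genes 1 was lower, Peg3. Meg3 (-0.70), Rian (-0.85) and Dlk1 (-1.25) then missed the threshold, and the cause was not tested. Plagl1 and Grb10 passed it with library size only (-0.64 and -0.61) and with a minimum count of 30 (-0.57 and -0.56). For the last, fewer genes were tested (3955). Library size only moved the median of all genes from -0.02 to -0.09. With no filter the median was -0.33 over 28251 genes, and the log2 fold changes of Meg3, Rian, Dlk1 and Peg3 remained below it; Mest then had a log2 fold change of -0.67 (SE 0.55; adjusted p = 0.551, edgeR).

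Counts over the other lists moved as follows. Other imprinted genes had 1 higher and 2 lower with a minimum count of 30. Imprint maintenance factors had 1 higher with library size only, DESeq2, no filter, the replicate block and the covariate, 0 with a minimum count of 30 and with thinning, and 0 lower with DESeq2, no filter and the covariate and 2 with thinning. Insulin and IGF signalling had 5 lower with library size only. Cell cycle inhibitors had 0 higher with a minimum count of 30 and with thinning and 1 lower with the covariate, and proliferation markers had 3, 14 and 5 higher with a minimum count of 30, no filter and the covariate.

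Leaving out each library in turn gave 1595 to 2019 called genes and 4 to 5 lower imprinted genes. Without overloaded library 1 Plagl1 was called and without overloaded library 3 Grb10, with ranges of -0.73 to -0.31 and -0.72 to -0.38. Imprint maintenance factors ranged from 1 to 2 higher and 0 to 1 lower, cell cycle inhibitors from 1 to 2 higher and 1 to 3 lower, and the log2 ratio of mean CPM of Mest from -1.69 to -0.29, the lowest without overloaded library 1.

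No pairing of the libraries by replicate number was visible. Deviations of same-numbered libraries correlated at 0.008, 0.014 and 0.015, and not every library correlated best with its own number. The labels do not say what the numbers stand for, so these values cannot decide whether the libraries were paired. With the replicate block the same 4 imprinted genes, Meg3, Rian, Dlk1 and Peg3, were called. Summing repeated symbols gave no value, since each of the 9 symbols occurs once. Depth limits Mest and Dlk1 most, and Igf2, Rtl1 and Gnas were too low to test.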
